A study of Mus musculus with 8 samples.

Results

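Cathepsins are the proteases of the lysosome. *Ctsb*, *Ctsc*, *Ctsh*, *Ctsk*, *Ctsl*, *Ctss* and *Ctsz* encode cysteine proteases of the papain family, *Ctsd* an aspartic protease, *Ctsa* a serine carboxypeptidase and *Lgmn* the asparaginyl endopeptidase legumain, a cysteine protease outside the papain family. All are made as inactive precursors that are activated in acid compartments, where legumain and other cathepsins can cleave them. In microglia and macrophages they degrade phagocytosed material and trim antigens and the invariant chain of MHC class II, and cystatins inhibit the cysteine members.

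These 10 genes were taken by symbol from the 32227 genes of the count tables, and all 10 were listed there. They were followed in 5 classes of myeloid cells from the brains of male C57Bl/6J mice, labelled as 5 to 6 months old. Each of 8 mice gave 1 PIPseq library of CD45+ cells, taken by magnetic selection 24 hours after a single intraperitoneal injection of sterile saline or of LPS (endotoxin) at 15000000 EU/kg. Brains were dissociated with DMSO or with inhibitors of transcription and translation, which gave 4 combinations of injection and dissociation with 2 libraries each, named here by both, as in LPS inhibitors replicate 1. The methods say that brains were not perfused, so blood cells in vessels were part of the preparation, and they give a younger age range than the labels. PIPseq captures single cells in particle-templated droplets and counts unique molecular identifiers (UMIs). In sums over a class, fewer cells of a subset and less RNA per cell cannot be told apart.

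Of 119053 cells within the limits on UMIs, genes and mitochondrial counts, 91756 were gated by markers as microglia (45619 with saline, 46137 with LPS), 3456 as macrophages (2294 and 1162), 3519 as monocytes (856 and 2663), 1757 as neutrophils (391 and 1366) and 322 as dendritic cells (109 and 213). A further 9749 cells met no gate, of which 7272 were from LPS libraries, and 3303 met several gates and were left out. Libraries held 90352359 to 141182123 UMIs, and the median cell had 2207 to 3161 UMIs with saline and 4149 to 4762.5 with LPS. No pair of libraries shared more than 25 cell barcodes. Genes outside the gates were read as a check, in UMIs per 1000000 UMIs of a class (CPM), with saline. *C1qa* averaged 7570 CPM in microglia, 7070 in macrophages and 379 to 596 in the other 3 classes, *H2-Aa* averaged 5970 in dendritic cells, and the neutrophil receptor *Csf3r* averaged 900 in neutrophils, from 282 to 1970, and 315 in microglia. Gate markers themselves differed between saline and LPS. The summed level of the 11 microglial markers in microglia was 36901 to 38725 CPM with saline and 6517 to 7656 with LPS, and that of the 9 macrophage markers in macrophages 12759.5 to 13572 and 4459 to 5602. Among dendritic cells, *Ccr7*, a marker of migratory cells, stood at 362 ± 395 CPM with saline and 4900 ± 271 with LPS, and *Xcr1*, a marker of conventional type 1 cells, at 135 ± 30.9 and at 0 in every library (SD, n = 4). How far a change of subsets within a class enters the values below was not tested.

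RNA that had left its cells is a further source of these UMIs. In barcodes of 1 to 99 UMIs, taken as free RNA, *Ctsl* stood at 737 to 974 CPM with saline and 4079 to 4517 with LPS, and *Lgmn* at 2855 to 3985 and 949 to 1559. The main values in the smaller classes are therefore set beside those in T-cells of the same libraries, taken as a reference class. Scaled by haemoglobin genes, free RNA came to 9.59% (*Ctsc*) to 45.0% (*Lgmn*) of saline T-cell levels, *Ctsk* aside. Scaled by microglial markers it came to 16.0% and 75.1% for the same genes. A ratio to T-cells is thus not a distance from free RNA alone.

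Of the members, 8 had an entry among the RefSeq promoters (build GRCm38.p6); *Ctsb* and *Ctsh* had none. *Ctsd* and *Lgmn*, which fell furthest in microglia, and *Ctsl*, which rose furthest, are shown because each held the letters CACGTG, the core bound by the MiT/TFE family of lysosomal gene regulators and by other E-box factors. The letters read the same on both strands. The 250 bases before the start are printed 5′ to 3′ on the gene's strand, with each CACGTG in capitals, for *Ctsd* at chr7:142387828-142388077 (minus strand), *Ctsl* at chr13:64370521-64370770 (minus strand) and the second of the 2 listed starts of *Lgmn* at chr12:102439093-102439342 (minus strand).
Ctsd: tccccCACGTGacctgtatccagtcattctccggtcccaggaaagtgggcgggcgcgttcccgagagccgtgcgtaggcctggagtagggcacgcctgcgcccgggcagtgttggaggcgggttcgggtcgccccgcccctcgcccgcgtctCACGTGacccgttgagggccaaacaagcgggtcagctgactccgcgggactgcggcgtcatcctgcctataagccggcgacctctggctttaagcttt
Lgmn: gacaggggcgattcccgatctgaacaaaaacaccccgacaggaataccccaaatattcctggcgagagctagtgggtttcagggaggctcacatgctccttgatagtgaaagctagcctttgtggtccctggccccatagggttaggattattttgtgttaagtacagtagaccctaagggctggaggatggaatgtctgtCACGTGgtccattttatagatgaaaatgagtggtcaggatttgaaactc
Ctsl: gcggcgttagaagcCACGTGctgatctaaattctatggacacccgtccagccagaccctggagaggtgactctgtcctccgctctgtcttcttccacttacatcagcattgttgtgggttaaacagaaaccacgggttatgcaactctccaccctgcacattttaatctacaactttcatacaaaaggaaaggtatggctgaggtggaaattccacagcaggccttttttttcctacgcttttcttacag
CACGTG began 245 and 98 bases before the start of *Ctsd*, 49 before that of *Lgmn* and 236 before that of *Ctsl*. The second listed start of *Ctsa* held it at 12 bases before the start and once more after it. The first starts of *Ctsa* and *Lgmn*, and *Ctsc*, *Ctsk*, *Ctss* and *Ctsz*, did not hold these letters between 250 bases before and 50 after the start. Over all 32851 promoters of that length 7.15% held CACGTG. The longer form TCACGTGA, which overlaps it, was in 0.974% of promoters and in 2 of the 10 of the members, *Ctsd* and the second start of *Ctsa*. Of the members with the letters, *Ctsl* was the only one that rose in microglia, and *Ctsd*, *Lgmn* and *Ctsa* fell.

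**Figure D1:**
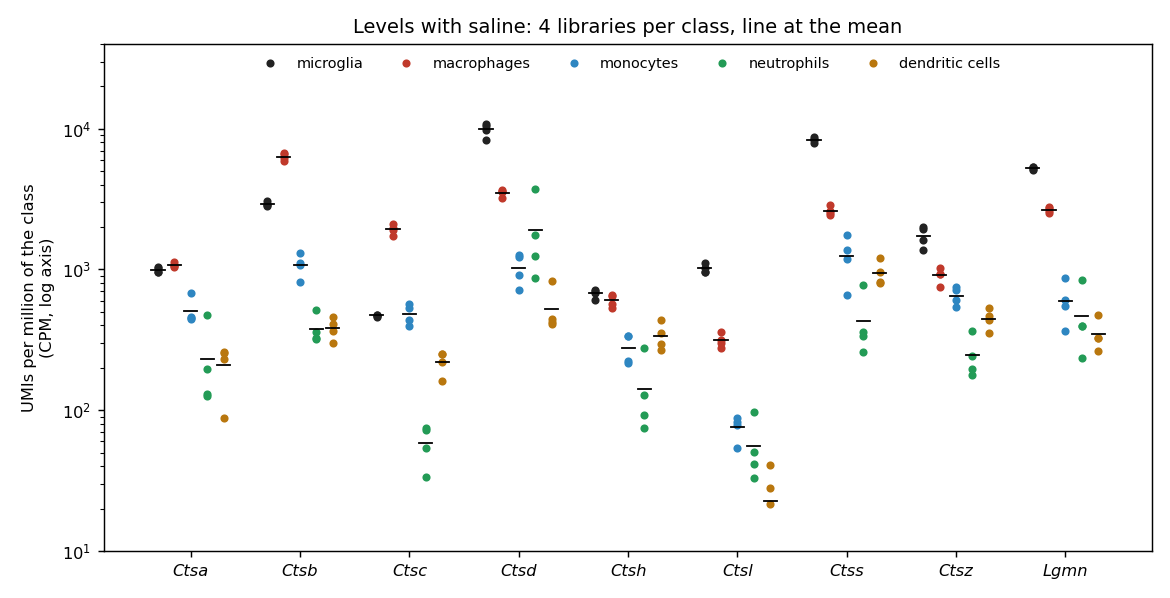
Levels of 9 members with saline in 5 cell classes, in CPM on a log axis, with 1 point per library (4 per class) and a line at the mean; 1 dendritic cell library with 0 UMIs of *Ctsl* has no point. *Ctsd*, *Ctss* and *Lgmn* stood highest in microglia, at means of 9874, 8353 and 5239 CPM, and *Ctsb* and *Ctsc* in macrophages, at 6329 and 1932 CPM.

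With saline, microglia and macrophages held most of this protease RNA, and each with its own leading members. The 10 members together made up 3.13% ± 0.176 (SD, n = 4) of all UMIs of microglia, 1.99% ± 0.0583 of macrophages, 0.594% ± 0.137 of monocytes, 0.39% ± 0.211 of neutrophils and 0.344% ± 0.0512 of dendritic cells. Levels of 1 gene are compared between classes here, and not between genes. The tests used edgeR with the library as a block over the 4 saline libraries, and 9 members had enough counts for it.

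A group of 5 members led in microglia over macrophages. *Ctsd*, the aspartic protease, read 8353, 10465, 9828 and 10852 CPM in the 4 saline microglia libraries and 3232, 3623, 3645 and 3568 in the macrophages of the same libraries, without overlap (log2 difference 1.44, SE 0.27, adjusted p = 0.000107). *Ctsl*, an endopeptidase, stood at 1017 ± 75.7 CPM in microglia and 313 ± 34.8 in macrophages (1.65, SE 0.21). *Ctss*, the protease that trims the invariant chain, stood at 8353 ± 306 and 2606 ± 180 CPM (1.63, SE 0.23). *Lgmn* (5239 ± 121 and 2654 ± 126; 0.93, SE 0.23) and the carboxypeptidase *Ctsz* (1730 ± 285 and 908 ± 113; 0.87, SE 0.19) also passed the test.

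Macrophages led for 2 members. *Ctsc*, which encodes the dipeptidyl peptidase that activates granule serine proteases, read 1973, 2116, 1724 and 1916 CPM in the saline macrophages and 461 to 477 in microglia, and monocytes lay beside microglia at 483 ± 77.7 (monocytes against microglia: log2 difference -0.03, SE 0.20, adjusted p = 0.907). *Ctsb*, a broad endopeptidase and peptidase, read 6149, 6681, 6591 and 5895 CPM in macrophages and 2822 to 3082 in microglia (1.17, SE 0.21). *Ctsa* and the aminopeptidase *Ctsh* did not pass the test between the 2 classes (*Ctsa* 1077 ± 40.1 against 990 ± 40.7 CPM, adjusted p = 0.593; *Ctsh* 602 ± 62.0 against 676 ± 50.8, adjusted p = 0.751). Between macrophages and microglia 7 of 9 members differed, beside 33.6% of all genes tested.

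Monocytes, neutrophils and dendritic cells held less of nearly every member. All 9 tested members were lower than in macrophages in each of these 3 classes, where 21.8%, 23.2% and 14.3% of all genes tested were lower, and 8, 9 and 9 were lower than in microglia, beside 27.9%, 26.3% and 18.5%. Scaled by microglial markers, free RNA came to 98.2% of the saline macrophage level of *Ctsl*, 73.8% of *Ctsd*, 63.1% of *Ctss* and 6.68% of *Ctsc*. Scaled by haemoglobin genes it came to 12.2%, 9.19%, 7.89% and 0.835%. The first estimate also counts any microglial marker made by macrophages themselves. The class order after subtraction is not given here. Neutrophils were set apart by *Ctsd*, at 1895 ± 1260 CPM, above monocytes at 1031 ± 269 (1.09, SE 0.28, adjusted p = 0.00448); their highest value, 3702, was in saline inhibitors replicate 1. T-cells of these libraries held 891 ± 141 CPM of *Ctsd*, so that neutrophils stood at 2.13 times T-cells, above them in 4 of 4 libraries, and monocytes at 1.16 times, above them in 3 of 4. Neighbours in order that did not pass the test were neutrophils and dendritic cells for *Ctsa* and *Ctsb*, monocytes and neutrophils for *Ctsl*, *Lgmn* and *Ctsh*, neutrophils and dendritic cells for *Lgmn* and *Ctsz*, and monocytes and dendritic cells for *Ctss*, *Ctsz* and *Ctsh*.

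*Ctsk*, best known from bone-resorbing osteoclasts, was almost absent. Over the 4 saline libraries it had 74 UMIs in microglia, 7 in macrophages and 0 in monocytes, neutrophils and dendritic cells, and its level of 0.565 CPM in microglia lay below the 1.26 to 4.30 CPM of saline free RNA. Monocytes from LPS libraries were the exception. They held 39 UMIs of *Ctsk* (1.9 to 3.8 CPM by library), and the saline monocytes held 0 of 2738599 UMIs. A count of 0 allows up to 1.10 CPM over the group. The pooled LPS level of 3.01 CPM was 2.74 times this limit, a ratio that takes no counting error or spread between libraries for LPS. A UMI of *Ctsk* was seen in 1.08% of LPS monocytes. LPS free RNA stood at 1.25 to 1.84 CPM, close to the lowest of these monocyte libraries, and LPS T-cells held 0 of 782740 UMIs, which allows up to 3.83 CPM and so does not set monocytes apart from them.

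**Figure D2:**
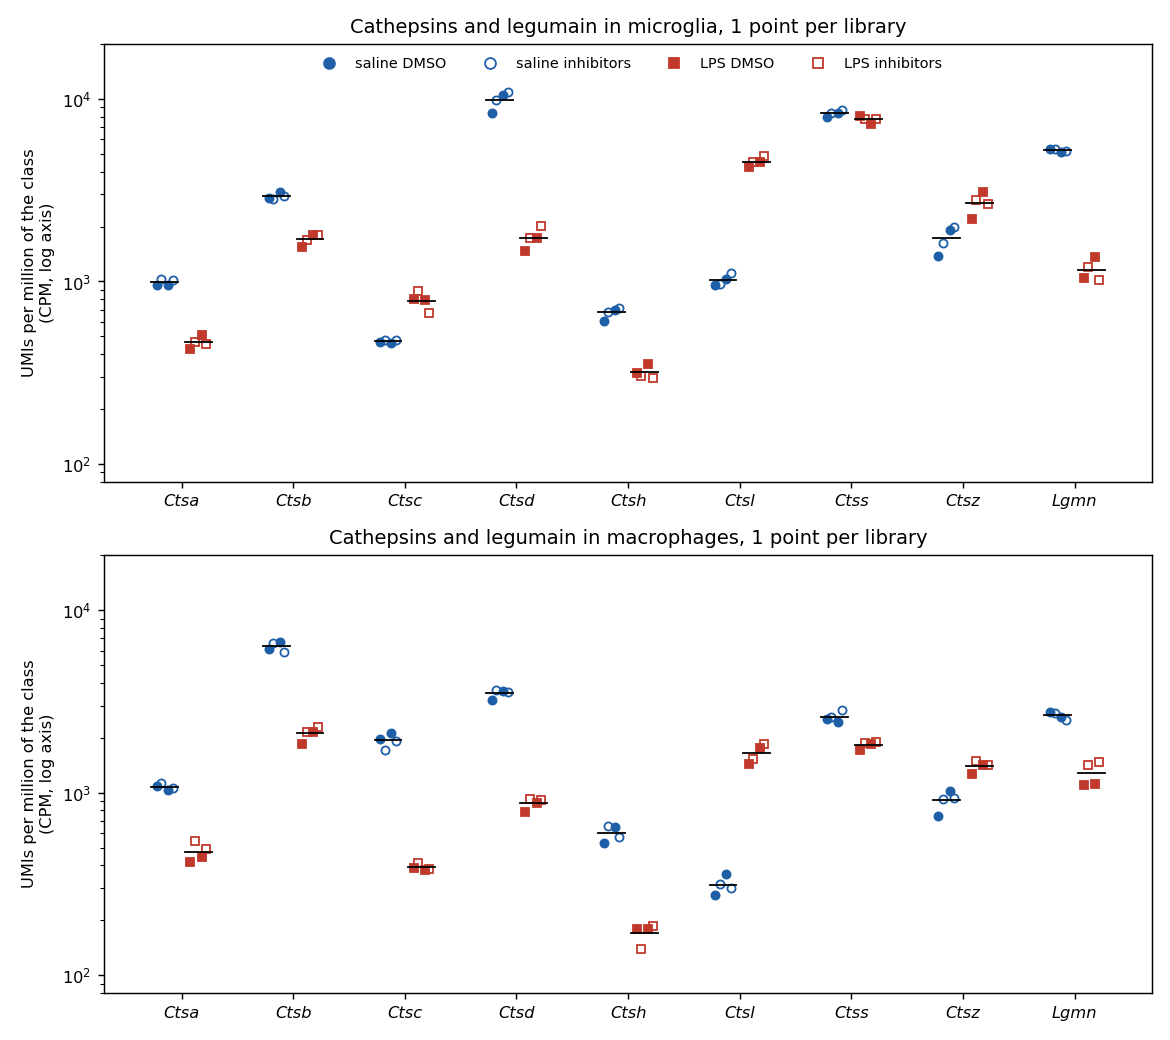
Levels of 9 members in microglia (top) and macrophages (bottom), in CPM on a log axis; each point is 1 library, filled for DMSO and open for inhibitors, and the lines are means of 4. *Ctsl* rose in both classes, *Ctsc* rose in microglia from about 471 to 785 CPM and fell in macrophages from 1932 to 390, and DMSO and inhibitor libraries lay together.

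In microglia LPS divided the family. *Ctsl*, *Ctsc*, *Ctsz* and *Ctss* rose, *Ctsd*, *Lgmn*, *Ctsa* and *Ctsh* fell, and *Ctsb* and *Ctsk* did not pass the test (edgeR quasi-likelihood test with TMM scaling, 4 libraries against 4, adjusted p under 0.05). The 8 of 10 members called stand beside 65.1% of all 20339 genes tested in microglia, with 30% higher and 35.1% lower, so their number is near the background and only their directions and sizes are described.

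*Ctsl* rose furthest of the members, and with TMM its change was the largest, while with library totals *Ctsd* (-2.51) and *Lgmn* (-2.18) changed by more than *Ctsl* (2.15). *Ctsl* read 954, 1032, 963 and 1117 CPM in the saline libraries and 4218, 4498, 4520 and 4853 in the LPS libraries (log2 fold change 2.90, SE 0.18, adjusted p = 3.0e-08). All LPS libraries lay above all saline libraries, with a ratio of mean CPM of 4.45. With cells thinned to 800 UMIs, 51.7% ± 2.08 of saline microglia and 93.8% ± 1.09 of LPS microglia held a UMI of *Ctsl* (84.4% and 99.6% unthinned), against 6.64% and 18.7% of T-cells. Microglia had median depths of 2228 to 3215 UMIs with saline and 4801 to 5543 with LPS, and T-cells of 2475 to 3876 and 1988 to 2811.

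*Ctsc* read 469, 461, 477 and 477 CPM with saline and 797, 787, 887 and 669 with LPS (1.47, SE 0.12, adjusted p = 3.3e-07). *Ctsz* read 1373, 1926, 1630 and 1990 CPM with saline and 2188, 3101, 2790 and 2655 with LPS (1.36, SE 0.20, adjusted p = 6.1e-05). Neither gene's groups overlapped, as was so for 72.6% of all genes tested.

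*Ctsd* and *Lgmn* made the opposite move. *Ctsd*, the member with the highest saline count, dropped from 8353, 10465, 9828 and 10852 CPM to 1478, 1721, 1740 and 2011 (-1.76, SE 0.20, adjusted p = 5.9e-06). *Lgmn* dropped from 5345, 5098, 5336 and 5178 CPM to 1044, 1358, 1203 and 1018 (-1.44, SE 0.15, adjusted p = 2.5e-06). In raw UMIs per cell *Ctsd* went from 27.6 ± 3.37 to 9.59 ± 1.71 and *Lgmn* from 14.9 ± 3.03 to 6.32 ± 0.525, although the LPS cells carried more UMIs in all.

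The size of each change depended on the scaling. The median change of all genes was -0.18 on the log2 scale with TMM and -0.94 with library totals alone, a shift of -0.75, and 46.0% of the genes called were higher with TMM and 17.5% with library totals. *Ctsl* (2.15 with library totals), *Ctsc* (0.74), *Ctsz* (0.63), *Ctsd* (-2.51) and *Lgmn* (-2.18) kept direction and call under both, with TMM values of 2.90, 1.47, 1.36, -1.76 and -1.44. *Ctss* rose by 0.63 (SE 0.16, adjusted p = 0.00435) with TMM but stood at -0.11 (adjusted p = 0.198) with library totals, since it read 7962, 8333, 8408 and 8707 CPM with saline and 8058, 7332, 7730 and 7804 with LPS; per cell it went from 23.6 ± 3.85 to 42.6 ± 4.07 UMIs. *Ctsb* stood at -0.03 (SE 0.15, adjusted p = 0.865) with TMM and fell by 0.78 with library totals, from 2822 to 3082 CPM with saline to 1549 to 1805 with LPS, while RLE scaling gave 0.07. *Ctsk*, at a mean of 0.543 CPM with saline, was called as lower with library totals (-0.82, adjusted p = 0.0248), though its groups overlapped.

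*Ctsa* and *Ctsh* fell by 0.35 each with TMM (SE 0.13 and 0.14, adjusted p = 0.0295 and 0.0381) and by 1.09 each with library totals. *Ctsa* read 954 to 1033 CPM with saline and 424 to 510 with LPS, and *Ctsh* 604 to 719 and 296 to 354. Their TMM calls lay near the threshold: both were lost without saline DMSO replicate 2, without either saline inhibitors replicate, without LPS DMSO replicate 1 or without LPS inhibitors replicate 1, and *Ctsh* also without LPS inhibitors replicate 2, with adjusted p between 0.0636 and 0.249 and changes of -0.33 to -0.23 for *Ctsa* and -0.36 to -0.21 for *Ctsh*. RLE scaling gave adjusted p = 0.18 for *Ctsa* and 0.193 for *Ctsh*, and DESeq2 0.234 and 0.279. Each was called under 9 of 22 alternatives. In raw UMIs per cell *Ctsa* went from 2.80 ± 0.541 to 2.54 ± 0.168 and *Ctsh* from 1.90 ± 0.268 to 1.74 ± 0.112.

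In macrophages *Ctsl* and *Ctsz* rose and *Ctsd*, *Lgmn*, *Ctsa* and *Ctsh* fell, the directions called in microglia, while *Ctsc* rose in microglia and fell in macrophages and *Ctsb* was called, as lower, in macrophages but not in microglia. With LPS 2 members rose, 6 fell and *Ctss* did not pass the test; *Ctsk* had too few counts. The 8 of 9 called stand beside 49.8% of 8593 genes, with 24.3% higher and 25.5% lower. *Ctsl* rose from 275, 358, 318 and 301 CPM to 1445, 1758, 1520 and 1854 (2.76, SE 0.17, adjusted p = 3.0e-09), and *Ctsz* from 749, 1019, 927 and 935 to 1266, 1410, 1500 and 1425 (0.98, SE 0.15, adjusted p = 5.4e-05). For both genes the LPS libraries all lay above the saline libraries.

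*Ctsc* fell furthest in macrophages, from 1973, 2116, 1724 and 1916 CPM to 387, 377, 414 and 381 (-1.95, SE 0.14, adjusted p = 2.3e-08). *Ctsb* fell from 6149, 6681, 6591 and 5895 CPM to 1859, 2162, 2145 and 2279 (-1.22, SE 0.14, adjusted p = 3.1e-06). *Ctsd* went from 3517 ± 193 to 878 ± 63.7 CPM (-1.64, SE 0.14), *Ctsh* from 602 ± 62.0 to 170 ± 21.6 (-1.45, SE 0.16), *Ctsa* from 1077 ± 40.1 to 474 ± 53.8 (-0.83, SE 0.13) and *Lgmn* from 2654 ± 126 to 1280 ± 198 (-0.69, SE 0.14), all past the threshold. The groups of these 6 genes and of *Ctss* did not overlap in CPM, as was so for 48.9% of all genes tested. *Ctss* stood at -0.15 (adjusted p = 0.384) with TMM and fell by 0.53 with library totals (adjusted p = 0.000927); the shift of the all-gene median between the scalings was -0.38, and 48.8% of the genes called were higher with TMM and 25.5% with library totals.

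Markers moved with these values. Within macrophages the receptors *Lyve1* and *Cd209f* of perivascular and border macrophages stood at 655 and 407 CPM with saline and 30.9 and 7.09 with LPS, while the scavenger receptor *Cd163* stood at 1041 and 970. Microglial markers summed to 4932 to 5471 CPM in saline macrophages and 582 to 774 in LPS macrophages; by these markers free RNA came to 98.2% of the saline macrophage level of *Ctsl*, 73.8% of that of *Ctsd* and 40.3% and 35.9% of those with LPS, an estimate that also counts any microglial marker made by macrophages themselves. With this estimate subtracted, which left little of the saline level, the change of *Ctsl* in macrophages was 7.33 in place of 2.76 and differed from that in microglia by 4.68; with the haemoglobin estimate it was 2.80. The same subtraction took *Ctsd* in macrophages to -0.79 (adjusted p = 0.00243), *Lgmn* to -0.44 (adjusted p = 0.0479) and *Ctsc* to -2.65, with every call of a member in macrophages kept. The part of either in the changes was not tested.

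The difference between the classes was tested within libraries, as an interaction of class and LPS. *Ctsc* differed by -3.43 on the log2 scale (SE 0.12), with a rise in microglia and a fall in macrophages. In each saline library macrophages exceeded microglia in *Ctsc* by 1.85 to 2.20 on the log2 scale of CPM + 1, and in each LPS library they lay below them by 1.10 to 0.81 (exact permutation test over 8 libraries, two-sided p = 0.0286, the smallest that 4 against 4 can give). This test exchanges libraries across the 2 capture batches; exchanged within batches, in 36 arrangements, the exact p was 0.0556, the smallest possible, for *Ctsc* and for every other member given here or below with an exact p of 0.0286, so that this design cannot reach 0.05 within batches. *Ctsb* (-1.20, SE 0.12), *Ctsh* (-1.11, SE 0.13) and *Ctss* (-0.79, SE 0.13) fell more, or rose less, in macrophages, and *Lgmn* fell less (0.74, SE 0.12), each with the same exact p and no overlap between the groups of within-library differences. These sizes are with TMM. On the log2 scale of CPM + 1, which the exact test used, they were -0.81, -0.73, -0.39 and 1.13. *Ctsa* (-0.48) and *Ctsz* (-0.40) also passed in edgeR but overlapped within libraries (exact permutation p = 0.457 and 0.914), and lost the call with RLE and library totals scaling and without saline DMSO replicate 1 or 2 or saline inhibitors replicate 1 or 2. *Ctsd* stood at 0.11 with TMM and was not called, but its within-library differences did not overlap, and it was called under 5 alternatives, as a smaller fall in macrophages: with free RNA subtracted by microglial markers (1.14), with library totals (0.50), with RLE (0.35), with a filter of at least 1 count (0.35) and without saline DMSO replicate 1 (0.42). After free RNA was subtracted by microglial markers *Ctss* (-0.37) and *Ctsz* (-0.10) were no longer called. The 7 of 9 called, 1 higher and 6 lower, stand beside 26.7% of 17916 genes, of which 1020 were called higher and 3755 lower. The all-gene median of this fit was -0.26, so most members called lay on the side where most genes called lay. The fit estimated infinite prior degrees of freedom, as did those of neutrophils and dendritic cells below. Their edgeR p-values thus rest on a spread pooled over genes, and SEs and exact tests are given in the first place.

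**Figure D3:**
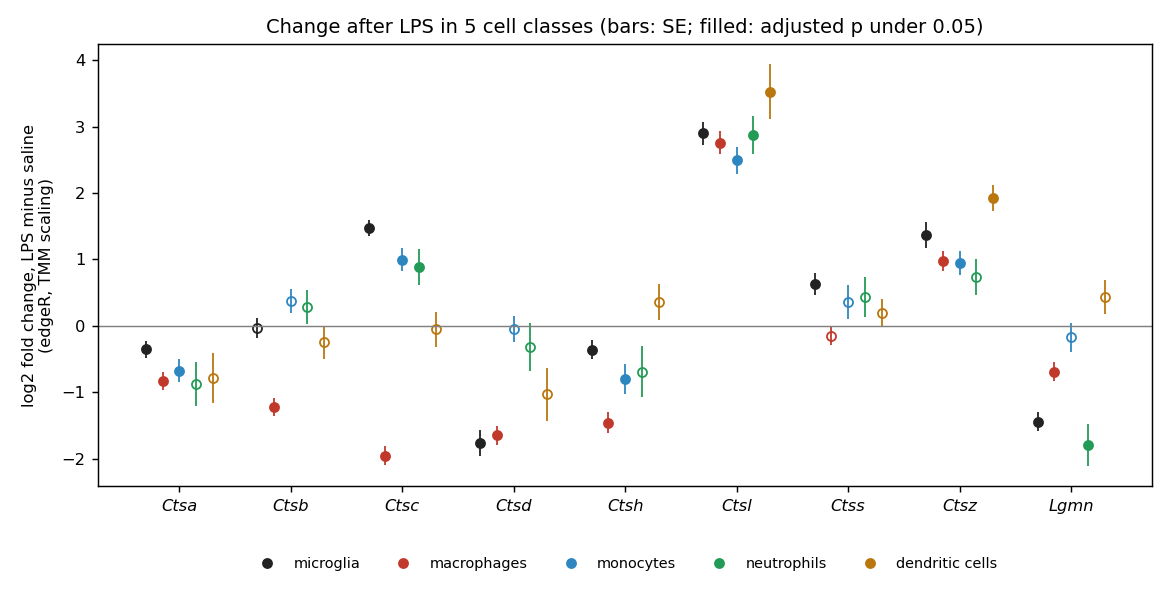
Log2 fold change of 9 members with LPS in 5 cell classes (edgeR, TMM scaling); points are estimates, bars are SEs, and filled points passed an adjusted p of 0.05. *Ctsl* lies between 2.49 and 2.90 in microglia, macrophages, monocytes and neutrophils. Its value of 3.52 in dendritic cells rests on 11 saline UMIs. *Ctsc* runs from -1.95 in macrophages to 1.47 in microglia. *Ctss* in microglia is above 0 with TMM and at -0.11 with library totals.

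Monocyte markers moved with LPS as well, from a sum over the 10 markers of 7307 to 8823 CPM with saline to 4940 to 6290 with LPS. The markers *Ace* (257 to 14.9 CPM) and *Adgre4* (370 to 58.9) of nonclassical monocytes and the chemokine receptor *Ccr2* (821 to 244) of classical ones stood lower, and *Ly6c2* (2645 to 3483) higher; their part in the results was not tested. In monocytes 5 of 9 tested members were called, beside 32.1% of 10437 genes (15.2% higher, 17% lower; 47.2% of the genes called were higher with TMM and 37% with library totals): *Ctsl*, *Ctsc* and *Ctsz* rose and *Ctsa* and *Ctsh* fell. *Ctsc* read 439, 398, 566 and 529 CPM with saline and 886, 765, 1063 and 860 with LPS (0.99, SE 0.17, adjusted p = 0.000687), and *Ctsz* 538, 606, 748 and 716 and then 1091, 1187, 1349 and 1036 (0.95, SE 0.18, adjusted p = 0.00152). Neither gene's groups overlapped, as in 30.8% of genes tested, and the LPS levels were 9.81 and 4.74 times those of T-cells. *Ctsa* fell from 508 ± 113 to 294 ± 8.02 CPM (-0.67, SE 0.17) and *Ctsh* from 278 ± 67.9 to 147 ± 33.8 (-0.80, SE 0.22, adjusted p = 0.0135). Without saline inhibitors replicate 2 the adjusted p of *Ctsh* was 0.0802. Each was called under 18 of 23 alternatives. *Ctsa* lost its call with a filter of at least 1 count (adjusted p = 0.291), without cells high in immediate-early genes (0.115), with DMSO libraries alone (0.327) and with either batch alone (0.0517 and 0.232).

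*Ctsd* and *Lgmn*, which dropped in microglia, did not pass the test in monocytes, where their groups overlapped. *Ctsd* read 1227, 711, 1276 and 908 CPM with saline and 1009, 755, 941 and 985 with LPS (-0.04, SE 0.19, adjusted p = 0.895), and *Lgmn* 606, 363, 872 and 553 and then 428, 437, 569 and 523 (-0.17, SE 0.22, adjusted p = 0.59). In T-cells both genes were lower with LPS in every library: *Ctsd* went from 891 ± 141 to 343 ± 48.9 CPM and *Lgmn* from 253 ± 83.6 to 98.5 ± 14.7. Monocytes thus stood at 1.16 times T-cells with saline and 2.69 times with LPS for *Ctsd*, and at 2.36 and 4.97 times for *Lgmn*. The interaction with microglia was 2.11 for *Ctsd* (SE 0.24, adjusted p = 3.9e-08), 1.68 for *Lgmn* (SE 0.22, adjusted p = 9.3e-07) and 0.79 for *Ctsb* (SE 0.21, adjusted p = 0.00491), with within-library differences that did not overlap between saline and LPS in any of the 3. Of 10 members these 3 were called, and *Ctsk* as well, beside 22.4% of genes (2203 higher, 1951 lower). The saline libraries of *Ctsk* were at 0, so its fitted value is not read as a difference. By the microglial markers, free RNA came to 56.9% of the saline and 17.2% of the LPS monocyte level of *Ctsd*, and after it was subtracted *Ctsd* rose in monocytes by 0.89 (adjusted p = 0.00934).

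The 12 neutrophil markers summed to 144801 to 297815 CPM with saline and 174089 to 284053 with LPS. Among them *Ltf* (9815 to 1070 CPM), *Camp* (25605 to 6510), *Ngp* (34216 to 28520), *Ly6g*, *Cd177* and *S100a9* stood lower with LPS. Higher were *Mmp8* (2530 to 3146 CPM), *Mmp9* (2771 to 3944), *Retnlg* (3041 to 4831), *Stfa2l1* (178 to 1075), *Cxcr2* and *S100a8*. The part of these shifts in the results was not tested. In neutrophils, 3 of 9 members were called, beside 20.3% of 5937 genes (10.5% higher, 9.84% lower). *Ctsl* rose (2.87, SE 0.29, adjusted p = 4.5e-05), *Lgmn* fell (-1.79, SE 0.32, adjusted p = 0.00171) and *Ctsc* rose (0.89, SE 0.27, adjusted p = 0.0341). Their groups did not overlap, as in 19.3% of genes tested, and their levels beside those of T-cells are given below. The call of *Lgmn* was lost with DMSO libraries alone (-1.11, adjusted p = 0.0606), batch 1 alone (-2.06, adjusted p = 0.0552) and batch 2 alone (-1.31, adjusted p = 0.098). *Ctsd*, the member neutrophils held most of, read 1254, 863, 3702 and 1762 CPM with saline and 1722, 898, 1372 and 1490 with LPS and did not pass the test (-0.32, SE 0.36, adjusted p = 0.58). Its change differed from that in microglia by 2.00 (SE 0.41), with no overlap within libraries (exact permutation p = 0.0286). This was 1 of 9 members called beside 19.5% of genes (1506 higher, 1909 lower). For *Ctsb* the difference from microglia was not called with TMM (0.75), but within libraries it did not overlap either (exact permutation p = 0.0286). With library totals it was called (0.98, adjusted p = 0.0490). The call of *Ctsc* was lost without saline DMSO replicate 1 or 2, LPS DMSO replicate 2 or LPS inhibitors replicate 1 or 2 (changes of 0.67 to 1.01, adjusted p 0.0528 to 0.122) and, among others, with library totals (0.79, adjusted p = 0.109) and with free RNA subtracted by haemoglobin (0.94, adjusted p = 0.0522) or by microglial markers (0.50, adjusted p = 0.653), so that 11 of 23 alternatives called it. *Ctsa* passed without saline DMSO replicate 2 (-1.02, adjusted p = 0.046) and *Ctsz* without saline inhibitors replicate 1 (0.88, adjusted p = 0.0247) and with DESeq2 (0.86, adjusted p = 0.0048).

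In dendritic cells *Ctsz* rose. *Ctsl* was called as higher too, which made 2 of 9 tested beside 44.2% of 1614 genes (24.3% higher, 19.9% lower, groups not overlapping in 41.2%). *Ctsl* held 11 UMIs over the 4 saline libraries, 1 of them at 0, and 149 over the LPS libraries. It entered the test through the LPS libraries, so its call is not read as a result. *Ctsz* read 353, 469, 528 and 437 CPM with saline and 1517, 1571, 1861 and 1911 with LPS (1.92, SE 0.19, adjusted p = 2.6e-06), which was 3.28 and 6.98 times the T-cell level. Its rise exceeded that in microglia by 0.93 (SE 0.25), with no overlap within libraries. *Lgmn* read 473, 264, 326 and 328 CPM and then 407, 402, 630 and 495 (0.44, SE 0.25, adjusted p = 0.182), a change that differed from the microglial fall by 2.29 (SE 0.26). *Ctsh* (1.08, SE 0.29), *Ctsd* (1.05, SE 0.26) and *Ctsc* (-1.15, SE 0.31) differed from microglia too, though *Ctsd* overlapped within libraries (exact permutation p = 0.0571). In all 5 of 9 members differed, 4 higher and 1 lower, beside 12.1% of genes (695 higher, 1292 lower). *Ctsc* lost this call without saline DMSO replicate 1 (-0.83, adjusted p = 0.0684) or saline inhibitors replicate 1 (-0.76, adjusted p = 0.165). *Ctsl* gained one without saline DMSO replicate 1 (1.39, adjusted p = 0.0346), with RLE (1.24, adjusted p = 0.0341) and with library totals (1.40, adjusted p = 0.00647). Its within-library differences did not overlap, but with 11 saline UMIs these values do not measure a class difference.

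*Ctsd* in dendritic cells missed the threshold (-1.03, SE 0.40, adjusted p = 0.0513). It read 826, 425, 443 and 410 CPM with saline and 91.0, 268, 480 and 260 with LPS, at or below T-cells in 7 of 8 libraries. Without saline DMSO replicate 2, saline inhibitors replicate 1 or 2, or LPS inhibitors replicate 1 its adjusted p was 0.0147 to 0.0468. It was called under 11 of 23 alternatives in all, among them RLE (-1.06, adjusted p = 0.0461) and library totals (-1.10, adjusted p = 0.0413), and stood at 0.21 (SE 1.13) with free RNA subtracted by microglial markers, by which free RNA came to 98.8% of its saline level. Without saline DMSO replicate 2 *Ctsa* passed (-1.06, adjusted p = 0.0249). Dendritic cells numbered 19 to 43 per saline library and 39 to 83 per LPS library.

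**Figure D4:**
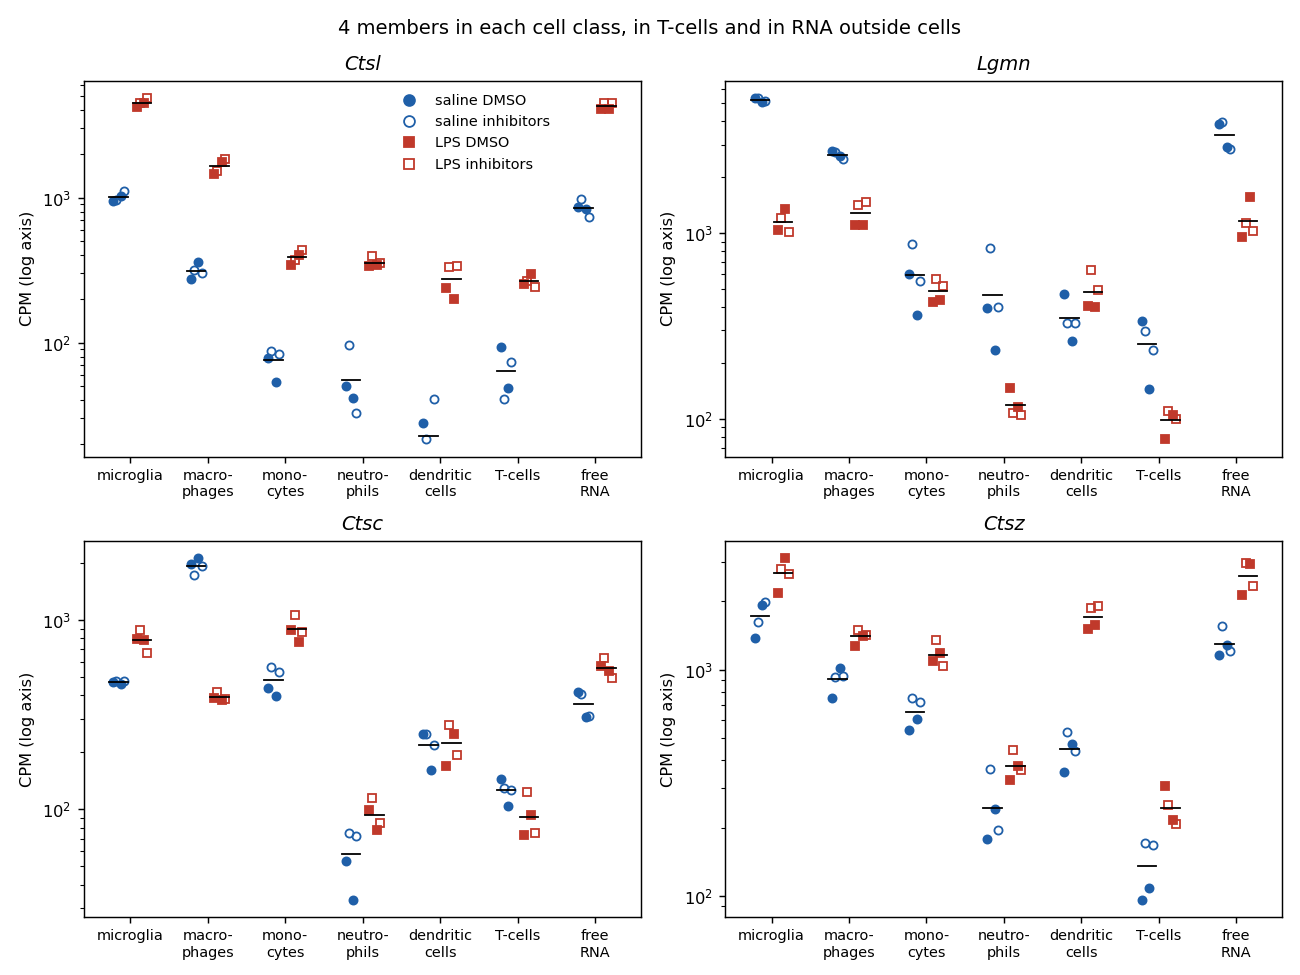
*Ctsl*, *Lgmn*, *Ctsc* and *Ctsz* in CPM on a log axis in 5 myeloid classes, T-cells and free RNA (barcodes of 1 to 99 UMIs); points are libraries, filled for DMSO and open for inhibitors, and lines are means of 4 (1 dendritic cell library at 0 UMIs of *Ctsl* has no point). With LPS *Ctsl* in monocytes, neutrophils and dendritic cells stands at 1.47, 1.34 and 1.04 times the level of T-cells, which was 64.2 CPM with saline and 265 with LPS, while *Ctsz* and *Ctsc* of LPS monocytes and *Ctsz* of dendritic cells stand above T-cells.

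*Ctsl* was higher with LPS in T-cells as well. They read 93.1, 48.5, 41.1 and 73.9 CPM with saline and 255, 298, 265 and 242 with LPS, and B-cells went from 45.8 ± 4.55 to 242 ± 81.9. Monocytes went from 75.5 ± 15.0 to 388 ± 41.0 CPM, neutrophils from 55.3 ± 28.3 to 355 ± 26.0 and dendritic cells from 22.6 ± 17.1 to 276 ± 67.0, or 1.47, 1.34 and 1.04 times the T-cell level with LPS. Free RNA, scaled by haemoglobin genes, came to 37.1% of the LPS monocyte level, 77.2% of that of neutrophils and 47.4% of that of dendritic cells, and scaled by microglial markers to 86.4%, 151% and 122%. LPS monocytes (343 to 438 CPM) and neutrophils (335 to 393) did not overlap T-cells (242 to 298), while dendritic cells did. With saline, free RNA by haemoglobin came to 47.0% of the monocyte level and 114% of the neutrophil level. After this subtraction *Ctsl* still rose in monocytes (2.80, adjusted p = 1.7e-05). The neutrophil value (2.97, adjusted p = 0.00593) rests on a saline level that the estimate exceeds on average, so it is not read as a rise. The 2 estimates thus leave different amounts of *Ctsl* to these classes. LPS macrophages stood at 6.21 times the T-cell level, and free RNA came to 8.86% of their level by haemoglobin and 40.3% by microglial markers.

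*Lgmn* was lower with LPS in neutrophils and in T-cells. Neutrophils went from 466 ± 258 to 119 ± 19.1 CPM and T-cells from 253 ± 83.6 to 98.5 ± 14.7, and free RNA by haemoglobin came to 54.2% and 62.0% of the neutrophil level. Neutrophils stood at 1.84 times T-cells with saline and 1.20 times with LPS, and the fall was -2.14 (adjusted p = 0.0082) after subtraction by haemoglobin. By microglial markers free RNA came to 116% of the LPS level. The call of *Lgmn* was kept after that subtraction, but it rests on LPS levels near 0. The largest fall under any alternative was -4.39. *Ctsc* in neutrophils stood at 58.4 ± 19.2 and 93.8 ± 16.2 CPM, against 126 ± 16.7 and 91.1 ± 23.2 in T-cells, and lay below them in every saline library.

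Dissociation with DMSO or inhibitors made no detectable difference to any member. With LPS as a covariate, edgeR called 0 of 10 members in microglia and 0 of 9 in each other class, DESeq2 also called 0, and no member had an unadjusted p under 0.05; estimates ran from -0.22 to 0.07 on the log2 scale in microglia, -0.15 to 0.08 in macrophages, -0.36 to -0.08 in monocytes, -0.56 to -0.03 in neutrophils and -0.70 to -0.01 in dendritic cells. Over all genes 0.383%, 0.594%, 0.0671%, 0% and 0.434% were called in microglia, macrophages, monocytes, neutrophils and dendritic cells. The LPS change did not differ detectably between the dissociations either: edgeR and DESeq2 called 0 members in each class, beside 0.0223%, 0%, 0%, 0.329% and 0% of genes, with 4 members of neutrophils and 1 of dendritic cells at an unadjusted p under 0.05.

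Around the members, other genes of the lysosome moved in both directions, as did all genes tested, of which 30% were higher and 35.1% lower in microglia and 24.3% and 25.5% in macrophages; the shares for the other classes are given with them above. Among 5 other cathepsins, 4 were tested in microglia and 2 fell (all 4 with library totals): *Ctso* from 106 ± 2.38 to 25.7 ± 0.997 CPM (-1.29) and *Ctsf* from 231 ± 18.9 to 42.6 ± 7.84 (-1.71). Both of the 2 tested fell in macrophages, all 4 tested fell in monocytes, and neither of 2 was called in neutrophils. Of 8 cystatin-type inhibitors, 3 of 4 tested rose in microglia and none fell (3 and 1 with library totals). *Cstb*, the inhibitor of cysteine cathepsins in the cytosol, went from 131 ± 10.98 to 358 ± 35.4 CPM in microglia (2.19) and from 229 to 1374 in macrophages (2.94). *Cst7*, an inhibitor that acts on *Ctsc*, went from 28.3 ± 4.04 to 87.9 ± 7.85 in microglia (2.37), and *Csta2* from 0.775 ± 0.306 to 6.29 ± 1.78 (3.71). In macrophages 2 of 3 rose and 1 fell, in monocytes and in neutrophils 2 of 4 rose and 1 fell, and both of 2 tested rose in dendritic cells. In macrophages (1.74 to 46.7 CPM), monocytes (2.77 to 34.3) and neutrophils (9.12 to 65.4) *Csta2* entered the tests through the LPS libraries. Its calls there, counted here, are not read as results. The stefin genes are near copies that share reads, so their split is uncertain.

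The V-ATPase, the pump that acidifies lysosomes, had 12 of 16 subunits higher and 1 lower in microglia with TMM, but 6 higher and 6 lower with library totals, with a list median of 0.63 and -0.11 beside all-gene medians of -0.18 and -0.94. *Atp6v0e* (1.93), *Atp6v1e1* (1.38) and *Atp6v1h* (1.15) were higher under both scalings. Macrophages had 6 of 15 higher and 3 lower (3 and 4 with library totals), monocytes 6 of 15 higher, neutrophils 1 of 15 and dendritic cells 4 of 9, with none lower in these last 3.

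Of 31 acid hydrolases and activators, 11 rose and 13 fell in microglia (5 and 25 with library totals), with a list median of -0.06 beside -0.18 for all genes, so that the share called, 24 of 31, lay near the 65.1% of all genes. In other classes 5 of 30 rose and 19 fell in macrophages, 7 and 10 of 31 in monocytes, 4 and 4 of 22 in neutrophils and 1 and 7 of 12 in dendritic cells. With library totals these counts were 3 and 22, 3 and 11, 0 and 4, and 1 and 7. *Acp5*, the tartrate-resistant acid phosphatase, went from 1.28 ± 0.294 to 21.4 ± 5.12 CPM in microglia (4.83) and from 4.57 to 149 in macrophages (5.42). In macrophages and in dendritic cells (20.2 to 264 CPM) *Acp5* entered the tests through the LPS libraries. Its calls there, counted above, are therefore not read as results. *Arsb*, arylsulfatase B, dropped from 493 ± 52.5 to 45.7 ± 8.74 CPM (-2.69) and *Gla*, alpha-galactosidase A, rose from 5.44 ± 0.217 to 11.7 ± 0.623 (1.86). Of 16 lysosomal membrane proteins and transporters 5 rose and 9 fell in microglia (1 and 12 with library totals; list median -0.32), beside 30% and 35.1% of all genes, among them the tetraspanin *Cd63* (2.16), the cystine exporter *Ctns* (-1.04) and the nucleoside transporter *Slc29a3* (-1.27); 2 and 8 of 16 did so in macrophages, 1 and 3 of 16 in monocytes, none of 12 in neutrophils and 4 and 3 of 8 in dendritic cells.

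Of 9 genes that sort enzymes to the lysosome, 4 rose and 3 fell in microglia (1 and 6 with library totals), among them the mannose 6-phosphate receptor *M6pr* (1.48), the adaptor *Gga3* (44.2 to 13.2 CPM) and sortilin, *Sort1* (-0.84). The counts were 3 and 3 of 8 in macrophages, 3 and 2 of 9 in monocytes, 0 and 1 of 6 in neutrophils and 0 of 1 in dendritic cells. The MiT/TFE transcription factors and their regulators had 7 of 8 genes lower and 1 higher in microglia, with a median of -0.98 beside -0.18 for all genes (-1.74 and -0.94 with library totals, when 7 were lower and none higher): *Mitf* dropped from 53.8 ± 6.41 to 6.14 ± 1.09 CPM (-2.39), *Flcn* changed by -1.54 and *Fnip1* by -1.16. In macrophages 5 of 7 were lower and 1 higher, in monocytes 1 and 1 of 7, and none of 4 in neutrophils. Among 9 genes of MHC class II antigen presentation, which cathepsins serve, 7 fell and 2 rose in microglia, 7 of 8 fell and 1 rose in macrophages, 8 of 9 fell and 1 rose in monocytes, 6 of 7 fell in neutrophils and 7 of 8 in dendritic cells; in microglia *H2-Eb1* went from 64.6 ± 11.6 to 7.57 ± 1.92 CPM (-2.38).

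Over the 40 sums of 5 classes and 8 libraries, members differed in the pattern they followed. Among the 9213 genes of at least 10 CPM on average, the genes outside the family with the highest Pearson correlation of log2(CPM + 1) were *Asah1* (0.963) and *Maf* (0.956) for *Ctsb*, *C1qc* (0.918) and *Abhd12* (0.915) for *Lgmn*, *P2ry13* (0.917) and *Ski* (0.910) for *Ctsd*, and *Csf1r* (0.906) and *Abhd12* (0.900) for *Ctsa*. For *Ctsl* they were *Fcer1g* (0.901) and *Slc13a3* (0.891), for *Ctsc* *Clta* (0.894) and *Blvra* (0.879), for *Ctss* *Rrbp1* (0.908) and *Slc3a2* (0.883), for *Ctsz* *Slc3a2* (0.887) and *Mrpl52* (0.881), and for *Ctsh* *Tcf4* (0.888) and *Itm2c* (0.884). Within the family the closest pair was *Ctsa* and *Ctsb* (0.896) and the most distant *Ctsh* and *Ctsl* (0.090). The sums share libraries, free RNA and classes, so these values are descriptions.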

How the data were processed

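The deposited counts are whole numbers of UMIs per gene and barcode, which the authors made with PIPseeker (barcode matching and STAR alignment to a GENCODE mouse reference) and did not normalize. The members and gene lists were chosen with earlier results of these data known. Cells with at least 800 and under 45000 UMIs, at least 250 and under 6500 genes, and under 5% mitochondrial counts were kept. A cell entered a class when at least 3 of its markers were seen and its mean log marker level reached 0.5 of a reference median, for that class only. The reference was the median over cells of each library for microglia (2.83 to 2.92 with saline, 0.906 to 0.993 with LPS) and over cells with 3 markers of the saline or of the LPS libraries for other classes (macrophages 1.605 and 0.896), so the gate differed between the groups compared. The limits were set after marker values had been seen. No doublet caller was run; cells meeting several gates were left out, while the study removed clusters that it regarded as doublets. UMIs were summed per class and library, and each library is 1 mouse. Sums were tested with edgeR 4.0.16 in R 4.3.3 (filterByExpr, TMM, quasi-likelihood test, Benjamini-Hochberg over all genes tested), where the study used DESeq2. A call is an adjusted p under 0.05, and SEs were derived from the F statistic. The code was tested on simulated counts.

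The genes named are the 10 members, up to 3 genes per list called in microglia with the smallest adjusted p, and the 2 genes closest in pattern to each member. Free RNA was scaled by haemoglobin genes. Intervals and floors cover counting error only. The labels give libraries with the same replicate number one batch, which the methods tie to the capture day, so the numbers pair libraries. Deviations from the group means of libraries sharing a number correlated at 0.164 to 0.661 in microglia, -0.00512 to 0.297 in macrophages, 0.131 to 0.324 in monocytes, 0.0574 to 0.343 in neutrophils and 0.0249 to 0.173 in dendritic cells. Alternatives were DESeq2 1.42.0, RLE scaling, other filters and gates, free RNA subtracted, each library left out, the replicate block, and each dissociation or batch alone. Library totals in place of TMM, free RNA scaled by microglial markers, and permutation within batches were chosen after seeing the data.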

Additional observations from a re-analysis of the deposited data

Results flagged for a closer look

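Of 90 groups of 4 libraries, 6 held a library far from the other 3, and chance flags about 1 in 20. They were *Ctsh* in macrophages (138.5 CPM in LPS inhibitors replicate 1), *Ctsa* in monocytes (677.8 CPM in saline inhibitors replicate 1), and in dendritic cells *Ctsa* (87.89 CPM in saline DMSO replicate 2), *Ctsd* (825.8 CPM in saline DMSO replicate 1), *Ctsh* (270.2 CPM in LPS inhibitors replicate 1) and *Ctss* (1383 CPM in LPS inhibitors replicate 2). The part of cell number in these values was not tested.

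The LPS change differed from that of microglia, by the interaction of class and LPS, in 16 cases, not counting *Ctsk* in monocytes, whose saline libraries were at 0. On the log2 scale the differences in macrophages were -3.43 for *Ctsc*, -1.2 for *Ctsb*, -1.11 for *Ctsh*, -0.787 for *Ctss*, -0.482 for *Ctsa*, -0.395 for *Ctsz* and 0.74 for *Lgmn*. In monocytes they were 2.11 for *Ctsd*, 1.68 for *Lgmn* and 0.786 for *Ctsb*, and in neutrophils 2.00 for *Ctsd*. In dendritic cells they were 2.29 for *Lgmn*, 1.08 for *Ctsh*, 1.05 for *Ctsd*, 0.932 for *Ctsz* and -1.15 for *Ctsc*. These cases were not equally firm. *Ctsa* and *Ctsz* in macrophages were called under 7 and 6 of 15 alternatives and overlapped within libraries. *Ctsc* in dendritic cells was called under 13 of 15, and *Ctsd* there overlapped within libraries.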

How the results depend on the processing

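The number of members called with LPS was 8 in microglia and in macrophages, 5 in monocytes, 3 in neutrophils and 2 in dendritic cells. With the replicate block it was again 8, 8, 5, 3 and 2, and the block changed no call of a member. It was 5 in microglia with DMSO libraries or inhibitor libraries alone, and 3 in monocytes with DMSO libraries or batch 1 alone. It was 1 in neutrophils with either batch alone or with free RNA subtracted by microglial markers, and 1 in dendritic cells with free RNA subtracted. With inhibitor libraries alone neutrophils gained *Ctsa* (-1.54, adjusted p = 0.0176) and *Ctsh* (-1.44, adjusted p = 0.0443) and lost *Ctsc*. Without 1 library the number was 2 to 4 in dendritic cells, with 4 without saline DMSO replicate 2. The number of members whose change differed between neutrophils and microglia was 2, in place of 1, with library totals or with free RNA subtracted by microglial markers. *Ctss* in microglia stood at -0.11 with library totals, and *Ctsd* in monocytes at 0.89 after free RNA was subtracted by microglial markers; the cause was not tested. Of 1041 values of single members under alternatives, 910 kept direction and side of the threshold, 54 lost and 23 gained a call, and 54 changed sign; in 52 of these the gene was called under neither setting. Dendritic cells numbered 19 to 83 per library, which limits their precision. With free RNA subtracted by microglial markers *Lgmn* in dendritic cells rose (1.69, adjusted p = 0.0146). *Ctsl* gave no value in dendritic cells after free RNA was subtracted by haemoglobin, nor in monocytes, neutrophils and dendritic cells after subtraction by microglial markers.

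The other changes of sign, on the log2 scale, were in members not called. In microglia *Ctsb* stood at 0.10 with DESeq2, 0.068 with RLE, 0.011 with at least 1 count, 0.026 without cells high in immediate-early genes, 0.059 with inhibitor libraries and 0.12 with batch 1, and at -0.10 to 0.080 without 1 library. *Ctsk* there stood at 0.10 with DESeq2, 0.060 with RLE, 0.0098 with at least 1500 UMIs per cell and 0.13 with batch 2, and at -0.15 to 0.16 without 1 library. *Ctss* in macrophages stood at 0.053 with a stricter gate and 0.11 with free RNA subtracted by microglial markers. In monocytes *Ctsd* stood at 0.075 with DESeq2, 0.24 with at least 1 count, 0.34 with free RNA subtracted, 0.054 with DMSO libraries and 0.28 with batch 2, and at -0.094 to 0.11 without 1 library. *Lgmn* there stood at 0.11 with at least 1 count, 0.10 and 0.43 with free RNA subtracted by haemoglobin and by microglial markers, 0.046 with DMSO libraries and 0.25 with batch 2, and at -0.26 to 0.10 without 1 library; *Ctss* stood at -0.025 with batch 1. In neutrophils *Ctsd* stood at 0.22 and *Ctsz* at -0.39 with free RNA subtracted by microglial markers, *Ctsd* at 0.42 with DMSO libraries and 0.034 with batch 2, and at -0.49 to 0.10 without 1 library, and *Ctsh* at 0.13 with DMSO libraries and 0.0051 with batch 1. In dendritic cells *Ctsc* stood at 0.086 with DESeq2, 0.13 with at least 1 count and 0.18 with batch 2, and at -0.24 to 0.073 without 1 library, *Ctsd* at 0.21 with free RNA subtracted by microglial markers, *Ctsh* at -0.031 without cells high in immediate-early genes and -0.075 with inhibitor libraries, *Ctss* at -0.10 with batch 1 and *Ctsb* at 0.11 with batch 2.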
